A study of Mus musculus with 12 samples.

Results

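The genes described here are those that write, keep, read and remove DNA methylation, a mark on cytosine that helps to hold genes silent. Dnmt1 copies methylation onto new DNA strands, Uhrf1 guides it there by reading half-methylated sites, and Dnmt3a and Dnmt3b place methylation on unmarked DNA. Tet1, Tet2 and Tet3 oxidise methylcytosine, Tdg cuts out the later oxidation products for repair, Uhrf2 is a relative of Uhrf1 that binds hydroxymethylcytosine, and Mbd1 binds methylated CpG sites. In the adult brain, where most neurons no longer divide, hydroxymethylcytosine is abundant and Tet and Dnmt3a activity is known for its part in neuronal gene control.

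Members were chosen by gene name, as every row of a count table of long non-coding transcripts that GENCODE vM21 assigns to one of these 10 genes. The family was picked with earlier results of the same libraries known, so the p-values below are not independent evidence. There were 31 such rows of 48033, and 9 of the 10 genes had at least 1. No row of Mbd1 was found by this rule, and Mbd1 was not analysed here. RNA was taken from the hippocampus and cerebral cortex of mice of the C57BL/6J background aged 7 months, either 5xFAD, a transgenic model of Alzheimer's disease that expresses human transgenes with familial mutations under elements of the neuronal Thy1 gene, or WT, the non-transgenic mice of the same age. Each of the 4 groups (hippocampus WT, hippocampus 5xFAD, cortex WT and cortex 5xFAD) holds 3 libraries, and both regions came from each mouse, although the labels do not say which libraries share a mouse. Libraries are called by group and by the number in their label.

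The libraries held 3517967 to 5014389 counts. The series describes 2 females and 1 male in each group, and the libraries go against this. Y-linked transcripts (at least 1074 counts where present) were detected in 8 of the 12 libraries, namely all 6 WT libraries and 5xFAD 3 of both regions, while Xist had at least 30468 counts in 5xFAD 1 and 5xFAD 2 of both regions and at most 25 elsewhere. The comparison of genotypes therefore cannot be told apart from a comparison of unequal sex makeup, except through 5xFAD 3. Since each mouse gave both regions, the 5xFAD 3 libraries would be of the same mouse, the only 5xFAD mouse with Y-linked counts. Regional identity could be checked on few markers: Zbtb20 and Lhx9, the 2 of 10 hippocampal markers with rows, summed to 111 to 128 CPM in hippocampus WT and 25.9 to 35.9 CPM in cortex WT, and 7 of 10 cortical markers summed to 168 to 179 CPM and 390 to 462 CPM in the same groups. In the 5xFAD libraries, the hippocampal markers summed to 109 to 114 CPM in the hippocampus and 39.2 to 49.7 CPM in the cortex, and the cortical markers to 180 to 281 CPM and 324 to 534 CPM. The cortical markers of the 5xFAD hippocampus and the hippocampal markers of the 5xFAD cortex thus lay above the WT libraries of the same region, and the part of this in the results below was not tested. CPM are the counts of a library divided by its TMM-scaled size, in the usual unit of that name.

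The rows are not the mRNAs that encode the enzymes. Of the 31 rows, 26 (83.9%) are annotated as retained-intron transcripts and 5 as processed transcripts, while retained-intron transcripts make up 39.6% of the whole table. Nevertheless 29 rows share at least 1 base with the coding sequence of their gene, 15 lie to over 50% in exons of protein-coding transcripts, 21 share bases with another row and 2 have no base of their own, so reads of the mRNA could be counted on them and reads could be divided between rows. This was not tested. Rows ran from 369 to 6362 bases, with a median of 856. Together they held 0.0634% to 0.0873% of a library, 38966 counts in all. Tet2 had 13738 of these on 6 rows, Tet3 8127 on 2, Uhrf2 7444 on 7, Dnmt3a 7388 on 3, Tdg 880 on 5, Tet1 805 on 1, Dnmt1 459 on 3, Dnmt3b 96 on 2 and Uhrf1 29 on 2.

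The edges where these rows run from a coding exon into an intron show what a retained intron looks like in this family. All 18 such exon-to-intron edges carried the GT of a splice donor and all 26 intron-to-exon edges carried the AG of a splice acceptor. The edges were taken from annotated exon boundaries, so this describes the annotation and not the reads of these libraries. The acceptor edges include that of Tdg ENSMUST00000133227, a processed transcript. Edges were counted per row, so a Uhrf2 donor and a Tdg acceptor that rows share were counted for each row. In 17 of the 18 donor edges, the reading frame of the coding exon met a stop codon inside the retained stretch, which ended 4 to 196 bases (median 61) into the intron. The donor edges of the most counted Tet3, Dnmt3a, Uhrf2 and Dnmt1 rows and of 2 Tet2 rows are shown from the GENCODE vM21 transcripts on GRCm38, 5' to 3', with coding exon in capitals and retained intron in lower case.
Tet3, ENSMUST00000205921, chr6:83441187-83441246, minus strand: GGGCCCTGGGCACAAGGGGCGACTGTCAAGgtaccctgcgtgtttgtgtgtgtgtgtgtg
Dnmt3a, ENSMUST00000173700, chr12:3835231-3835290, plus strand: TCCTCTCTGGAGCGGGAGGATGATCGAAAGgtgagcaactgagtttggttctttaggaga
Uhrf2, ENSMUST00000134518, chr19:30056465-30056524, plus strand: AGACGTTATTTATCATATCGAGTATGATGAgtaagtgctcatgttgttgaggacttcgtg
Dnmt1, ENSMUST00000214964, chr9:20907841-20907900, minus strand: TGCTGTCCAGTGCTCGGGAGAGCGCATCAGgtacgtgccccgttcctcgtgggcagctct
Tet2, ENSMUST00000199176, chr3:133476455-133476514, minus strand: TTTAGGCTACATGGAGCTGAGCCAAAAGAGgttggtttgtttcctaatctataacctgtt
Tet2, ENSMUST00000200203, chr3:133480103-133480162, minus strand: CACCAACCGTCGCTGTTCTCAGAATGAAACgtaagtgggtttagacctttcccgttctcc
The first in-frame stop ended 4 bases into the intron in the Uhrf2 row and in Tet2 ENSMUST00000200203, 12 bases in the Dnmt3a row, 24 bases in Tet2 ENSMUST00000199176, 71 bases in the Dnmt1 row and 177 bases in the Tet3 row. The frame is that of the coding transcripts, since the rows themselves have no annotated reading frame.

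Tet1 stood apart from the other members. Its single row, ENSMUST00000173081, is a processed transcript of 1505 bases in 3 exons. The row lies on the minus strand of chr10:62839097-62865304, a span that another gene of the same strand, Gm48353, overlaps. Its first exon (chr10:62865136-62865304, 169 bases) is in no other annotated Tet1 transcript and starts 14.71 kb downstream of the nearest upstream start of a protein-coding Tet1 transcript. The exons of 54 and 1282 bases that follow share their bases with coding exons, so that 88.8% of the row lies in protein-coding transcripts. The first exon is shown because it is the only stretch that sets this row apart from the mRNA, in lower case, followed by the first 24 bases of the next exon in capitals.
Tet1 ENSMUST00000173081, chr10:62865136-62865304 and the start of exon 2 at chr10:62864808-62864861, minus strand: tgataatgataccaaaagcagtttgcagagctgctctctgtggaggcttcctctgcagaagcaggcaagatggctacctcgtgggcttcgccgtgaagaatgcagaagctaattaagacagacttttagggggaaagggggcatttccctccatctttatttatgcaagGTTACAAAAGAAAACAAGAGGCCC
This first exon had a GC content of 47.9% and 3 CpG sites. How many reads fell on it, rather than on the shared exons, cannot be read from a count per row.

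**Figure D1:**
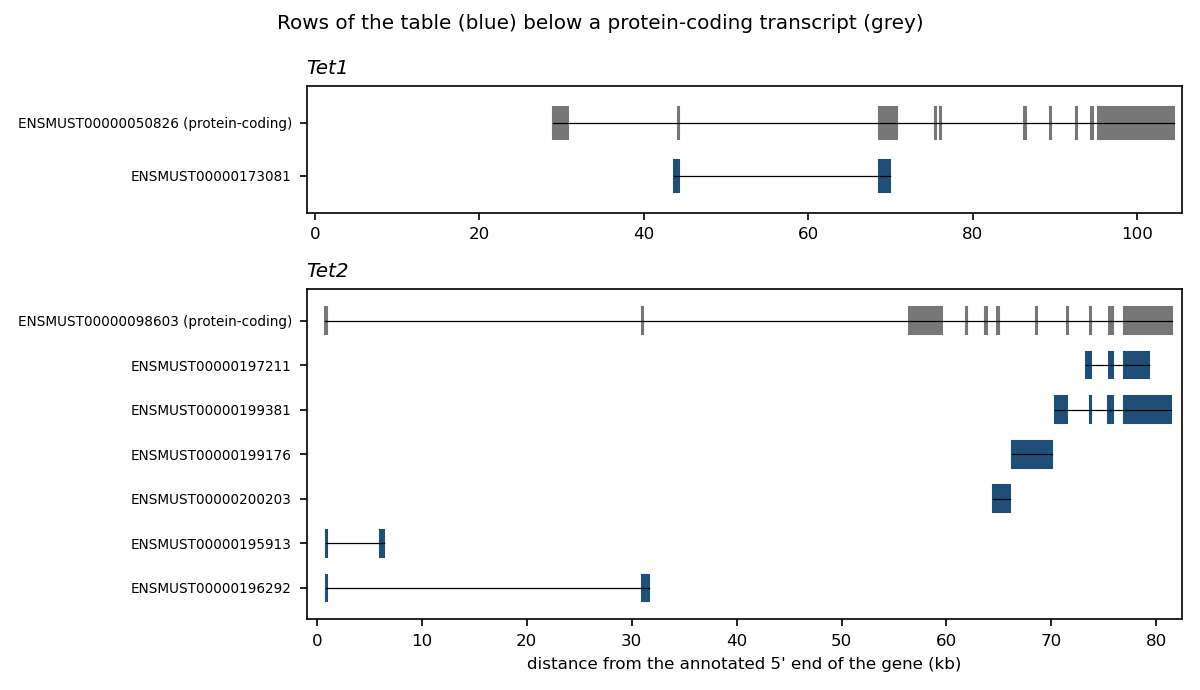
Exons of Tet1 (top) and Tet2 (bottom), boxes joined by introns, with 1 protein-coding transcript in grey and the rows of the table in blue, against the distance from the annotated 5' end of the gene in kb. The only Tet1 row lies inside the gene and shares the exons after its first with coding exons, and the 6 Tet2 rows fall into 2 at the 5' end, 2 over internal introns and 2 over the 3' end.

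In the hippocampus, Tet1 was lower in 5xFAD mice than in WT mice. The row had 147, 140 and 97 counts in WT 1 to 3 and 8, 2 and 3 counts in 5xFAD 1 to 3. As CPM these are 31.4, 29.7 and 22.01 in WT and 1.99, 0.46 and 0.74 in 5xFAD. Every 5xFAD library was thus far below every WT library, and the mean was 27.7 ± 5.00 (SD, n = 3) CPM in WT and 1.06 ± 0.815 (SD, n = 3) in 5xFAD. The log2 fold change was -4.65 (SE 0.48), a 25.1-fold lower level (adjusted p = 0.0418 by the quasi-likelihood test of edgeR, with the Benjamini-Hochberg method over 11343 gene sums). In a bulk tissue, fewer cells of a type and less RNA per cell cannot be told apart. Tet1 passed the filter on low counts through its WT libraries alone. By p-value Tet1 ranked 5 and by size of change 8 among the gene sums tested.

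This was the only call among the members in the hippocampus: 1 of the 8 gene sums that passed the filter, against 0.0529% of all gene sums tested (6 of 11343). The call depended on the unit tested, on single libraries and on the fit. When the same counts were tested as a row among 21894 rows, the adjusted p of Tet1 was 0.103 by edgeR, and 0 of 19 member rows were called (0.0183% of all rows). Leaving out a library moved the adjusted p of the gene sum to between 0.0225 (without 5xFAD 1) and 0.210 (without WT 1), with 0.109 without WT 2, 0.116 without WT 3, 0.0655 without 5xFAD 2 and 0.0548 without 5xFAD 3. The log2 fold change stayed between -5.45 and -4.29 in these fits. With all 12 libraries in 1 fit it was -4.68 (adjusted p = 0.265 by edgeR). With DESeq2 the adjusted p was 5.1e-14 for the gene sum and 1.7e-12 for the row, in fits that called 83 gene sums and 127 rows in all. In 5xFAD 3, which carries Y-linked counts as all WT libraries do, the Tet1 level of 0.74 CPM was as low as in the other 5xFAD libraries, and against it alone the log2 fold change was -5.15 (adjusted p = 0.0646 by edgeR). That fit has 1 library in the 5xFAD arm, which is assumed to vary as the WT libraries do.

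In the cerebral cortex, the Tet1 row split the 5xFAD libraries. Counts were 108, 93 and 57 in WT 1 to 3 and 5, 6 and 139 in 5xFAD 1 to 3, or 25.3, 19.99 and 16.2 CPM in WT and 1.11, 1.59 and 31.5 CPM in 5xFAD. The overlap of the groups thus came from 5xFAD 3, which held the highest level of all 12 libraries, while 5xFAD 1 and 5xFAD 2 lay below every WT library. The mean was 20.5 ± 4.57 (SD, n = 3) CPM in WT and 11.4 ± 17.4 in 5xFAD, and the log2 fold change of -0.84 (SE 1.06, adjusted p = 0.904 by edgeR) was smaller than its error. Without 5xFAD 3 it was -3.92, a description only, since this library is singled out by its Tet1 level and the remaining 5xFAD libraries hold 5 and 6 counts. With the libraries that carry Y-linked counts only, that is 5xFAD 3 against the 3 WT libraries, it was 0.61 (adjusted p = 0.788 by edgeR). In the 5 low libraries of both regions the level was 0.46 to 1.99 CPM, and in the other 7 it was 16.2 to 31.5 CPM, with no library between. The 5xFAD 3 libraries, which would be of the same mouse, had 0.74 CPM in the hippocampus and 31.5 CPM in the cortex. Trem2, a receptor of microglia, was read beside this after its values were seen. It had 47.4, 53.3 and 36.8 CPM in cortex WT and 231, 183 and 19.7 CPM in cortex 5xFAD, so that cortex 5xFAD 3 was not high in Trem2 and not low in Tet1. In the hippocampus it had 27.5, 19.3 and 32.2 CPM in WT and 178, 186 and 40.4 CPM in 5xFAD, where 5xFAD 3 was low in Tet1. The part of this in the Tet1 values was not tested, and the human transgenes were not checked here.

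For Tet1, the hippocampal minus the cortical genotype effect was -3.84 (SE 1.43, unadjusted p = 0.0206, adjusted p = 0.661 by edgeR in a fit of all 12 libraries) and rested on cortex 5xFAD 3, without which it was -0.75. In WT mice, the Tet1 level in the hippocampus and the cortex overlapped (log2 fold change 0.41, SE 0.23, adjusted p = 0.426 by edgeR). Between the regions of 5xFAD mice, Tet1 did not pass the filter, since only cortex 5xFAD 3 was high.

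**Figure D2:**
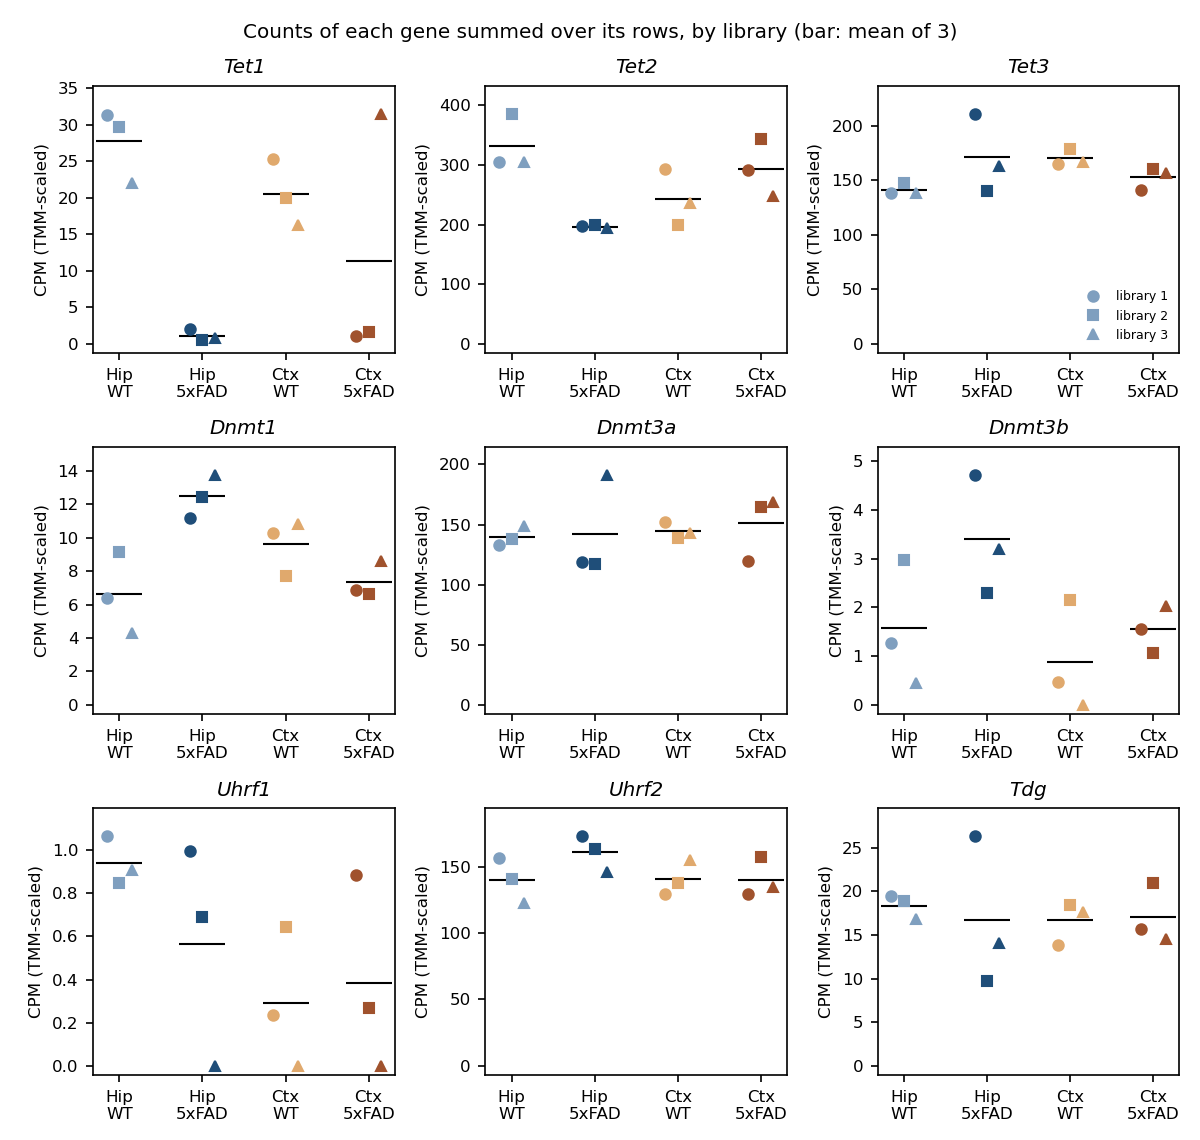
CPM (y axis, TMM-scaled, each panel on its own scale) of the 9 genes in the 3 libraries of each group (Hip, hippocampus, and Ctx, cortex), with circles, squares and triangles for libraries 1, 2 and 3 and a bar at the mean. Tet1 sits at 0.46 to 1.99 CPM in 5 of the 6 5xFAD libraries and at 31.5 in cortex 5xFAD 3, and Tet2 in hippocampus 5xFAD lies below all hippocampus WT libraries.

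Tet2, the family member with the most counts, was also lower in the 5xFAD hippocampus, but did not pass the test. Its 6 rows summed to 305, 386 and 304 CPM in WT 1 to 3 and to 197, 199 and 194 CPM in 5xFAD 1 to 3. The groups did not overlap, and the 5xFAD libraries lay within a few CPM of each other. The log2 fold change was -0.73 (SE 0.16, unadjusted p = 0.00241, adjusted p = 0.443 by edgeR), and with DESeq2 the adjusted p was 0.0355. In the cortex the order was the other way, with 294, 199 and 237 CPM in WT and 291, 343 and 247 CPM in 5xFAD, overlapping groups and a log2 fold change of 0.27 (SE 0.20, adjusted p = 0.824 by edgeR). The difference of the effect between the regions was -1.03 (SE 0.25, unadjusted p = 0.00176, adjusted p = 0.647 by edgeR), so that a regional difference was not called.

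The lower Tet2 sum of the 5xFAD hippocampus lay in the rows over the 3' end of the gene. ENSMUST00000197211 (chr3:133465847-133471817, 3186 bases, 89.3% in coding transcripts) had 106, 95.4 and 108 CPM in WT and 34.9, 21.6 and 73.7 CPM in 5xFAD. ENSMUST00000199381 (chr3:133463683-133474819, 6362 bases, 80.2% in coding transcripts), which covers most of the same exons, had 75.7, 157 and 123 CPM in WT and 74.3, 21.2 and 12.4 CPM in 5xFAD. Both rows were lower in each 5xFAD library than in any WT library. Their log2 fold changes were -1.23 (SE 0.44, unadjusted p = 0.0277, adjusted p = 0.616 by edgeR) and -1.70 (SE 0.68, unadjusted p = 0.0435, adjusted p = 0.652 by edgeR). Single libraries moved both values: without 5xFAD 1 the change of ENSMUST00000199381 was -2.79, and without 5xFAD 3 that of ENSMUST00000197211 was -1.85. With 5xFAD 3 as the only 5xFAD library, they were -3.24 and -0.47. Together these 2 rows held 181 to 252 CPM in WT and 42.8 to 109 CPM in 5xFAD, while the other 4 rows held 73.7 to 136 CPM in WT and 85.6 to 156 CPM in 5xFAD, overlapping ranges. In the cortex the 2 rows held 106 to 221 CPM in WT and 122 to 255 CPM in 5xFAD.

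The Tet2 rows over internal introns did not share this order. ENSMUST00000199176 (chr3:133475075-133478926) is 1 exon of 3852 bases of which 3.92% are coding-transcript bases. By length the row thus covers almost only intron, while the share of its counts that came from intron was not tested. It had 93.0, 81.5 and 43.0 CPM in hippocampus WT and 47.7, 104 and 56.2 CPM in hippocampus 5xFAD, overlapping. In the cortex it had 40.1, 54.1 and 52.1 CPM in WT and 96.1, 57.8 and 87.9 CPM in 5xFAD, with every 5xFAD library above every WT library and a log2 fold change of 0.73 (SE 0.25, unadjusted p = 0.024, adjusted p = 0.907 by edgeR). The intron row ENSMUST00000200203 just upstream had 23.9, 45.2 and 23.7 CPM in hippocampus WT and 25.8, 44.2 and 41.1 CPM in hippocampus 5xFAD, overlapping (log2 fold change 0.27, SE 0.35, adjusted p = 0.859 by edgeR). The split of counts among the Tet2 rows also varied within groups: ENSMUST00000199381 held between 11.4% and 51.0% of the Tet2 counts in the 3 cortex WT libraries. Its cortex levels were 152, 28.2 and 26.7 CPM in WT and 47.0, 138 and 37.4 CPM in 5xFAD, with 1 high library in each genotype.

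**Figure D3:**
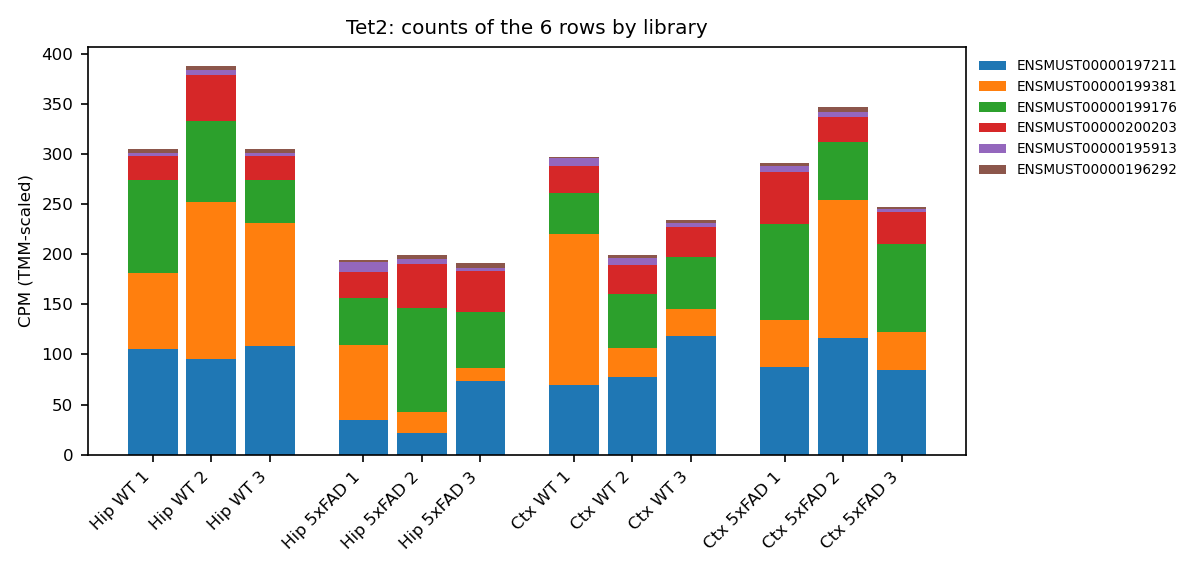
CPM (y axis, TMM-scaled) of the 6 Tet2 rows, stacked, in each of the 12 libraries (Hip, hippocampus, and Ctx, cortex), a bar for each library. The blue and orange blocks, the 2 rows over the 3' end, sum to 42.8 to 109 CPM in the 3 hippocampus 5xFAD libraries and to 106 CPM or more in every other library.

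Tet3 had nearly all its counts on 1 retained-intron row, ENSMUST00000205921 (chr6:83436797-83441632, 4836 bases in 1 exon, 2.89% in coding transcripts), which held at least 98.2% of the Tet3 counts in each library. The Tet3 sum was 139, 147 and 138 CPM in hippocampus WT and 211, 140 and 163 CPM in hippocampus 5xFAD. These groups overlapped through 5xFAD 2, with a log2 fold change of 0.31 (SE 0.19, adjusted p = 0.662 by edgeR). In the cortex, the levels of 165, 179 and 167 CPM in WT were all above the 141, 161 and 157 CPM in 5xFAD, but the difference was small (log2 fold change -0.16, SE 0.12, adjusted p = 0.842 by edgeR). Among WT mice, each hippocampus library was below each cortex library (log2 fold change -0.29, SE 0.11, unadjusted p = 0.0343, adjusted p = 0.238 by edgeR).

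Dnmt1, the maintenance methyltransferase, went the other way from Tet2 in the hippocampus at a much lower level. Its 3 rows summed to 6.40, 9.13 and 4.31 CPM in WT and to 11.2, 12.4 and 13.8 CPM in 5xFAD, without overlap. The log2 fold change was 0.94 (SE 0.32, unadjusted p = 0.0214), which did not pass after adjustment (adjusted p = 0.527 by edgeR). In the cortex, the sum was 10.3, 7.74 and 10.8 CPM in WT and 6.86, 6.64 and 8.62 CPM in 5xFAD, overlapping (log2 fold change -0.38, SE 0.26, adjusted p = 0.807 by edgeR). The difference of the effect between the regions was 1.29 (SE 0.40, unadjusted p = 0.00816, adjusted p = 0.650 by edgeR). The main row, ENSMUST00000214964 at the 3' end of the gene, carried between 31.1% and 79.6% of the Dnmt1 counts of a library, so the split of its few counts varied widely.

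Dnmt3a, the de novo methyltransferase of adult neurons, had group means that differed by less than the spread within its 5xFAD groups. It had 140 ± 7.95 CPM in hippocampus WT, 142 ± 42.5 in hippocampus 5xFAD, 145 ± 6.86 in cortex WT and 151 ± 26.9 in cortex 5xFAD (mean ± SD, n = 3 each). Its main row, ENSMUST00000173700 (chr12:3806007-3838814), carried 59.6% to 67.9% of the counts in every library, a narrow range beside that of Tet2. The next row, ENSMUST00000085826, lies over the antisense gene Dnmt3aos, and the counting of strand for this table is not stated in the sources used here.

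Uhrf2 and Tdg had overlapping groups in every comparison. The 7 rows of Uhrf2 summed to 140 ± 17.2 CPM in hippocampus WT, 161 ± 13.8 in hippocampus 5xFAD, 141 ± 13.2 in cortex WT and 140 ± 14.7 in cortex 5xFAD (mean ± SD, n = 3 each). The 5 rows of Tdg, the glycosylase, summed to 18.4 ± 1.39, 16.7 ± 8.67, 16.7 ± 2.48 and 17.1 ± 3.45 CPM in the same order. Over the 5 comparisons, the log2 fold changes of Dnmt3a, Uhrf2 and Tdg lay between -0.17 and 0.23, with SE up to 0.45, and the lowest adjusted p was 0.704 by edgeR. Within Tdg, the row ENSMUST00000142658 (chr10:82646905-82648236) had 5.77, 7.47 and 6.14 CPM in hippocampus WT and 3.94, 4.15 and 2.92 CPM in 5xFAD, without overlap (log2 fold change -0.80, SE 0.30, unadjusted p = 0.0331, adjusted p = 0.631 by edgeR). The Tdg row with the most counts, ENSMUST00000133227, had a log2 fold change of 0.29 (SE 0.53) there.

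Dnmt3b and Uhrf1, genes of dividing and early embryonic cells, were near the limit of detection. Dnmt3b had 1.28, 2.97 and 0.45 CPM in hippocampus WT and 4.73, 2.30 and 3.20 CPM in hippocampus 5xFAD, which overlapped (log2 fold change 1.13, SE 0.64, adjusted p = 0.635 by edgeR). In the cortex it had 0.47, 2.15 and 0 CPM in WT and 1.55, 1.06 and 2.04 CPM in 5xFAD and was not tested. Uhrf1 reached at most 1.07 CPM, did not pass the filter in any comparison and had 0 counts in 3 libraries. A count of 0 allows up to 3 counts, which is 0.751 CPM in hippocampus 5xFAD 3, 0.853 in cortex WT 3 and 0.688 in cortex 5xFAD 3, a limit that covers counting error only.

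**Figure D4:**
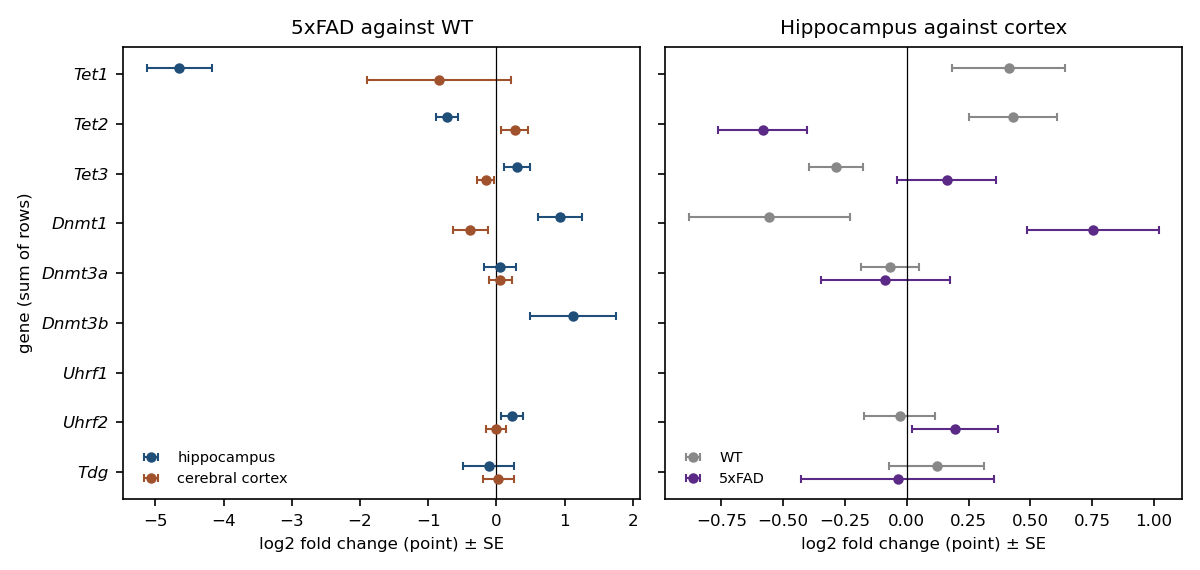
Log2 fold change (x axis, point) ± SE of each gene sum that passed the filter, for 5xFAD against WT in the hippocampus (blue) and cortex (brown) on the left, and for hippocampus against cortex in WT (grey) and 5xFAD (purple) on the right. The scales of the 2 panels differ. The hippocampal Tet1 point at -4.65 lies far from all other points of the left panel, which lie between -0.84 (Tet1 in the cortex) and 1.13.

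Compared per length, as CPM per kb of each row summed over the gene, Tet2 and Uhrf2 held the first 2 places in each of the 4 groups. Tet2 (102 ± 15.1 CPM per kb) and Uhrf2 (88.0 ± 6.09) led in hippocampus WT and overlapped. Dnmt3a (51.2 ± 2.04), Tet3 (29.6 ± 1.08), Tdg (23.3 ± 1.83), Tet1 (18.5 ± 3.33) and Dnmt1 (7.12 ± 2.89) followed without overlap between neighbours (mean ± SD, n = 3 each), and Dnmt3b (2.28 ± 1.93) and Uhrf1 (1.61 ± 0.259) came last and overlapped. In hippocampus 5xFAD, Uhrf2 (92.7 ± 7.94) stood above Tet2 (77.1 ± 2.83) without overlap, and Tet1 (0.700 ± 0.534) was last, overlapping Uhrf1. In cortex WT, Uhrf2 and Tet2 overlapped at 86.6 ± 3.43 and 84.6 ± 6.01 CPM per kb. These levels count rows of this table only and say nothing of the coding mRNAs.

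Counted over the family, the genotype effect in the hippocampus was not in 1 direction. Of the 8 gene sums tested there, 5 had a positive and 3 a negative log2 fold change, with a median of 0.14 against 0.03 over all gene sums. The groups did not overlap in 3 (Dnmt1 higher, Tet1 and Tet2 lower), against 16.5% of all gene sums. Of 19 rows tested, 0 passed and 4 did not overlap, all 4 lower in 5xFAD, against 15.8% of all rows. In the cortex, 0 of 7 gene sums were called (0.0175% of all) and 1, Tet3, did not overlap, against 13.1% of all. There, 0 of 19 rows were called (0.0545% of all rows) and 4 did not overlap, 1 higher and 3 lower, against 12.1% of all. Uncorrected p-values under 0.05 were found for 3 gene sums in the hippocampus and 0 in the cortex, where all gene sums had 8.69% and 6.67%.

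Between the regions, 0 of 7 gene sums were called in WT mice, where 3.49% of all gene sums were, and 0 of 19 rows, against 0.986%. Tet2 was higher and Tet3 lower in the hippocampus of WT mice without overlap, where 24.9% of all gene sums did not overlap. The Tet2 difference was 0.43 on the log2 scale (SE 0.18, unadjusted p = 0.0472, adjusted p = 0.279 by edgeR). In 5xFAD mice 0 of 6 gene sums were called, against 0.193% of all, and 0 of 18 rows, against 0.0182%. There, Tet2 was lower in the hippocampus (log2 fold change -0.58, SE 0.18, unadjusted p = 0.0136, adjusted p = 0.264 by edgeR) and Dnmt1 higher (0.75, SE 0.27, unadjusted p = 0.0244, adjusted p = 0.316 by edgeR), each without overlap, as 19.2% of all gene sums were. The comparisons share libraries with each other and are given side by side only. The regional fits and the interaction treat all libraries as independent, although each mouse gave both regions. The interaction of genotype and region was called for 0 of 8 gene sums (0% of all) and 0 of 20 rows (0.00812% of all).

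A wider list of 55 genes of DNA methylation and its supply of methyl groups had rows for 41. Of the 32 to 35 that passed the filter in a comparison, edgeR called 0 in any of the 5 comparisons. In the hippocampus, 1 of 32 had an unadjusted p under 0.05, where 8.69% of all gene sums did: Usp7, a deubiquitinase that binds Dnmt1 and Uhrf1, with a log2 fold change of -0.63 (SE 0.22, adjusted p = 0.532 by edgeR). In the cortex there were 3 of 33, near the 6.67% of all gene sums. They had negative log2 fold changes and were Gadd45b, a stress-induced factor linked to demethylation (-1.57, SE 0.61), Ogt, which adds GlcNAc to proteins and binds Tet enzymes (-0.84, SE 0.33), and Zbtb38, a reader of methylated DNA (-0.57, SE 0.22), each with an adjusted p of 0.740 by edgeR. These 4 genes were named after their values were seen. The median log2 fold change of the list was 0.00 in the hippocampus and 0.03 in the cortex.

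Markers of other cell types also moved between the libraries. Of 6 astrocyte markers, the 5 with rows summed to 1423 to 1542 CPM in hippocampus WT and 528 to 1195 CPM in hippocampus 5xFAD, and 5 of 6 oligodendrocyte markers to 348 to 438 and 505 to 591 CPM. The 7 neuronal markers summed to 1550 to 3452 CPM in hippocampus WT and 1795 to 7180 CPM in hippocampus 5xFAD. In cortex WT and 5xFAD, the astrocyte markers summed to 958 to 1577 and 964 to 1529 CPM. The oligodendrocyte markers summed there to 299 to 468 and 538 to 611 CPM. The neuronal markers summed to 2112, 2832 and 1622 CPM in cortex WT 1 to 3 and 1372, 1429 and 3168 CPM in cortex 5xFAD 1 to 3. As for Tet1, cortex 5xFAD 1 and 5xFAD 2 lay below every cortex WT library and 5xFAD 3 above. These sums do not stand for each marker of a list. For 5xFAD against WT in the hippocampus, the median log2 fold change was 0.02 over the 4 astrocyte markers tested. It was -0.08 over 5 oligodendrocyte and 0.41 over 7 neuronal markers, and edgeR called 0 in each list. For tissue taken along at dissection, 3 of 5 striatal markers summed to 73.5 to 246 and 53.5 to 163 CPM in hippocampus WT and 5xFAD and to 219 to 369 and 467 to 506 CPM in cortex WT and 5xFAD. The 2 of 5 choroid plexus markers with rows summed to 16.8 to 33.4 and 6.72 to 46.8 CPM in hippocampus WT and 5xFAD. In cortex WT and 5xFAD they summed to 3.65 to 3.99 and 1.59 to 10.7 CPM, with the highest in 5xFAD 3. The part of cell makeup in the Tet1, Tet2 and Dnmt1 values was not tested.

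The genes whose gene sums followed the 3 most counted members most closely over the 12 libraries were named by the Pearson correlation of log2(CPM + 0.5) among 4180 gene sums with a mean of at least 100 counts. They were Cdkal1 (0.83), Sema4f (0.81) and Alg6 (0.80) for Tet2, Dlgap4 (0.85), Nxph1 (0.84) and Ndrg4 (0.84) for Tet3, and Chd2 (0.88), Mphosph6 (0.85) and A230072C01Rik (0.83) for Uhrf2. For Tet1, added after its values were seen, they were Trim9 (0.91), Ttc19 (0.87) and Map2 (0.87). Map2 is also in the list of neuronal markers above. Between members, the lowest of 21 correlations was -0.59 (Tet2 with Dnmt1) and the highest 0.53 (Tet3 with Tdg). The 12 points share the same libraries and the 4 groups.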

How the data were processed

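RNA of the hippocampus and cerebral cortex was depleted of ribosomal RNA and made into stranded, paired-end libraries. The methods published with these data also describe removal of linear RNA with RNase R, and its part in these counts was not tested. The deposited file gives, for each of 12 libraries, unnormalized counts by transcript as whole numbers, and all 12 columns were used. The submitters' processing notes name Trimmomatic 0.36 and edgeR, while the counting program, genome build and annotation are not given in the sources used here. Transcript names, types, positions and sequences came from GENCODE vM21 on GRCm38, in which 225 Ensembl identifiers were not found.

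Members and lists were chosen with earlier results of these data known. Counts were tested per row and per gene, as the sum over its rows (22103 sums), with edgeR 4.0.16 in R 4.3.3 (filterByExpr, TMM, glmQLFit and glmQLFTest, Benjamini-Hochberg over all features tested, threshold 0.05). Only the 6 libraries compared entered a fit, and all 12 entered the interaction. The SE is the size of a log2 fold change divided by the square root of F. Row and sum fits were scaled separately. Functions were tested on simulated counts. Named were all members, the most counted row of each, rows that passed a test, rows with an unadjusted p under 0.05 between genotypes whose groups did not overlap, and the like-patterned genes. The other rows and the 4 genes of the wider list were added after their values were seen.

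Alternatives were DESeq2 1.42.0, its size factors in edgeR, library size only, no low-count filter, assembled transcripts left out, all 12 libraries in 1 fit, libraries with Y-linked counts only, the replicate number as a block, and each library left out. No 2 libraries of a group agreed within sampling noise (chi-square per degree of freedom at least 20.8 in 12 pairs). The series describes 3 mice in each genotype, and the p-values measure the spread between these samples. Totals of 3517967 to 5014389 counts set the precision. Figures used Python 3.11.15, pandas 2.3.3 and matplotlib 3.10.9. The summed level of the microglial marker list is not reported here.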

Additional observations from a re-analysis of the deposited data

How the results depend on the processing

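The 1 hippocampal call among the gene sums, Tet1, became 2 with DESeq2, which added Tet2, and 0 with all 12 libraries in 1 fit, 0 with the libraries that carry Y-linked counts, and 0 to 1 when a library was left out (1 only without 5xFAD 1). Among rows, DESeq2 called 1 in the hippocampus where edgeR called 0, and in the cortex the gene sums called were 0 to 1 over the libraries left out, with 1 (Tet1) only without cortex 5xFAD 3. The replicate numbers did not pair the samples by the rule used (correlations of deviations -0.0922 to 0.331 over 5634 gene sums). The highest, 0.331, was that of hippocampus 5xFAD 3 with cortex 5xFAD 3, the libraries that Y-linked counts also match. With the replicate block, the hippocampal count of members called was 0 (Tet1 log2 fold change -4.73, adjusted p = 0.233 by edgeR), the other comparisons stayed at 0, and all calls between regions in WT went from 399 to 5.

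With DESeq2, calls over all gene sums were 83 against 6 in the hippocampus, 53 against 2 in the cortex, 761 against 399 and 336 against 22 between regions in WT and 5xFAD, and 19 against 0 for the interaction. Over rows, DESeq2 called 127 against 4, 102 against 12, 743 against 217, 366 against 4 and 105 against 2. With assembled transcripts left out, the gene sums called were 3, 0, 133 and 0 in the first 4 comparisons. The libraries with Y-linked counts gave 29 in the hippocampus and 1 in the cortex, and all 12 libraries in 1 fit gave 3, 7 and, between regions in 5xFAD, 262. The causes were not tested.

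Some log2 fold changes changed sign, not all of them small: that of Tet1 in the cortex was -0.84 in the main fit. With Y-linked libraries only, these were ENSMUST00000133227 in the hippocampus (-0.036) and, in the cortex, Tdg (-0.20), Tet1 (0.61 as a gene sum and 0.61 as a row), ENSMUST00000142658 (-0.24), ENSMUST00000197211 (-0.061) and ENSMUST00000199381 (-0.88). With library size only, they were ENSMUST00000199176 in the hippocampus (0.0092) and the Dnmt3a interaction (0.028), and with assembled transcripts left out, Uhrf2 between regions in WT (0.0058). Over the libraries left out, hippocampal values ran from -0.22 to 0.18 for Dnmt3a, -0.61 to 0.16 for Tdg, -0.42 to 0.66 for ENSMUST00000133227, -0.21 to 0.23 for ENSMUST00000173700 and -0.46 to 0.16 for ENSMUST00000199176. Cortical values ran from -0.031 to 0.19 for Dnmt3a, -0.14 to 0.13 for Tdg, -0.0925 to 0.066 for Uhrf2, -0.053 to 0.13 for ENSMUST00000134518, -0.043 to 0.38 for ENSMUST00000197211 and -0.71 to 1.41 for ENSMUST00000199381. Between regions they ran from -0.12 to 0.056 for Uhrf2 in WT, and in 5xFAD from -0.36 to 0.039 for Dnmt3a, -0.52 to 0.24 for Tdg and -0.0102 to 0.29 for Tet3. Interactions ran from -0.28 to 0.089 for Dnmt3a, -1.38 to 1.19 for Dnmt3b and -0.66 to 0.10 for Tdg. Of the other values for single genes and rows, 773 kept direction and side of the threshold, 8 lost the call and 3 gained one.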
